A study of Mus musculus with 8 samples.

Results

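The Zfp genes, which encode zinc finger proteins, were taken from a table of R-loop peaks by name. Members were the autosomal peaks assigned to a protein-coding gene whose symbol begins with Zfp and a digit. There were 214 such peaks among 27837 autosomal union peaks, and they lay in 107 genes. A further peak, in Zfp275 on the X chromosome, was left out. A gene counted as clustered when another Zfp gene of the table lay within 200 kb, which split the 107 genes into 48 clustered genes (85 peaks) and 59 isolated genes (129 peaks). The choice used gene names and positions and no score. At the edge of the distance rule, Zfp984 was clustered with a gap of 168776 bp to its nearest Zfp gene, and Zfp871 was isolated with a gap of 228576 bp. The Zfp984 peak scored 70, 81 and 84 in control and 153, 202 and 157 in Kmt5b-deleted cells, and the Zfp871 peak 39, 37 and 28 against 33, 32 and 55.

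Most Zfp proteins carry a row of C2H2 zinc fingers, in which 2 cysteines and 2 histidines hold a zinc ion, and many of them bind DNA in a sequence-specific way. The largest group also has a KRAB domain, which recruits the co-repressor TRIM28 (KAP1) and through it the H3K9 methyltransferase SETDB1, HP1 proteins and DNA methylation, mainly at retroelements. KRAB zinc finger genes arose by tandem duplication and often stand in clusters of near relatives. A few genes share the symbol without that chemistry, such as Zfp36 and Zfp36l2, whose CCCH fingers bind AU-rich messenger RNA and promote its decay.

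R-loops are structures in which RNA pairs with 1 DNA strand and displaces the other. They were mapped by DRIP-seq, in which the S9.6 antibody pulls down DNA held in RNA:DNA hybrids. The cells were proliferating muscle stem cells (MuSCs), isolated and grown in culture, of mice with or without KMT5B, a histone H4K20 methyltransferase. Both groups carried Pax7CreERT, a tamoxifen-inducible Cre driven from the Pax7 locus and therefore active in Pax7-expressing cells, on a C57BL/6 background. Ctrl cells had wild-type Kmt5b (Suv4-20h1WT in the labels), and Kmt5b sKO cells had floxed Kmt5b deleted by this Cre (Suv4-20h1KO). The paper describes tamoxifen given to adult mice of both groups. Each genotype had 3 S9.6 libraries, described in the methods as biological replicates. The labels do not tie a library to an animal or a pool, so p-values rest on the spread between these libraries. That spread was taken from a trend over all tested peaks of like score, and not from the single peak, and so was each SE. An input library of each genotype had no values used here.

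The value of a peak is the S9.6 score deposited by the authors, a signal over the peak scaled by Drosophila spike-in reads and rounded. It grows with peak length and is no read count, so the depth behind single scores is unknown. The 3 Ctrl libraries summed to between 3848297 and 4669752 over autosomal peaks, and the Kmt5b sKO libraries to between 4639231 and 4867664. Zfp peaks took between 0.658% and 0.688% of each library. Of the MuSC markers looked for, 5 of 8 genes carried a union peak, as did 1 of 3 endothelial genes and 0 of 3 blood and 0 of 3 fibro-adipogenic genes, which describes R-loop signal and not expression.

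To be tested, a peak needed a mean score over 30 across the 6 libraries, which left 203 Zfp peaks in 104 genes (25815 peaks in all). The 11 untested Zfp peaks had means of 13.2 to 28.8. In 24 tested Zfp peaks the Ctrl mean was under 30, so that they passed through the Kmt5b sKO libraries, and 20 of these were called higher. Among them are the peaks given below in Zfp872, Zfp110, Zfp36, Zfp986, Zfp719 and Zfp398. The peaks of largest change in Zfp936, Zfp697 and Zfp980, the called Zfp106 peak and the tested Zfp990 peak belong there too. The called Trim28 peak and the Cbx5 peak also had Ctrl means under 30. Each call came from limma, fitted across all tested peaks on log2(score + 1), where the Benjamini-Hochberg adjusted p was under 0.1 and the fold change exceeded 1.5.

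R-loop signal over Zfp genes was higher in Kmt5b sKO MuSCs at 67 of 203 peaks (33.0%) and lower at 1 (0.493%). That share is near the background: 32.9% of all tested peaks were called higher and 0.883% lower. Among tested peaks of protein-coding genes, 22.9% were called higher. The median log2 fold change was 0.40 over Zfp peaks and 0.35 over all tested peaks, and the summed score of the 214 peaks was 25452, 31500 and 25903 in Ctrl and 31660, 32991 and 32482 in Kmt5b sKO. The nearness depends on the filter: among peaks with a mean score over 100, 19 of 82 Zfp peaks (23.2%) and 12.3% of all peaks were called higher. Of these 19, 7 lay on distal chromosome 4, a region described below, where all 7 tested peaks of that size were called. By gene, 42 of 104 Zfp genes (40.4%) had at least 1 peak called higher, against 43.3% of protein-coding genes with a tested peak. All 3 Kmt5b sKO libraries lay above all 3 Ctrl libraries at 92 Zfp peaks (45.3%, against 41.5% of all tested peaks) and below them at 8 (against 3.81%).

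The call depends on the scaling of the libraries. With each library set to the same total, 45 Zfp peaks were called higher and 7 lower, and with each library centred on its median peak the counts were 17 and 21. Over all tested peaks the centring left 10.3% called higher and 11.9% called lower, and moved the median from 0.35 to −0.11. Statements on direction below hold for the spike-in scale unless the centred value is given too.

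Among themselves, the Zfp peaks differed by locus. Clustered genes had 35 of 79 tested peaks called higher (44.3%, median log2 fold change 0.53), and isolated genes had 32 of 124 (25.8%, median 0.36). At least 1 peak was higher in 24 of 47 clustered genes and in 18 of 57 isolated genes. The contrast rested on one region, distal chromosome 4: without its genes, a comparison added after seeing the data, 18 of 61 clustered peaks (29.5%) and 25.2% of 123 isolated peaks were called higher. It also moved with the distance rule, since with a limit of 500 kb 48.5% of clustered and 17.6% of isolated peaks were called higher, and with 100 kb 42.2% and 28.8%. Both shares describe peaks that share genes and loci, and no test was made of their difference.

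**Figure D1:**
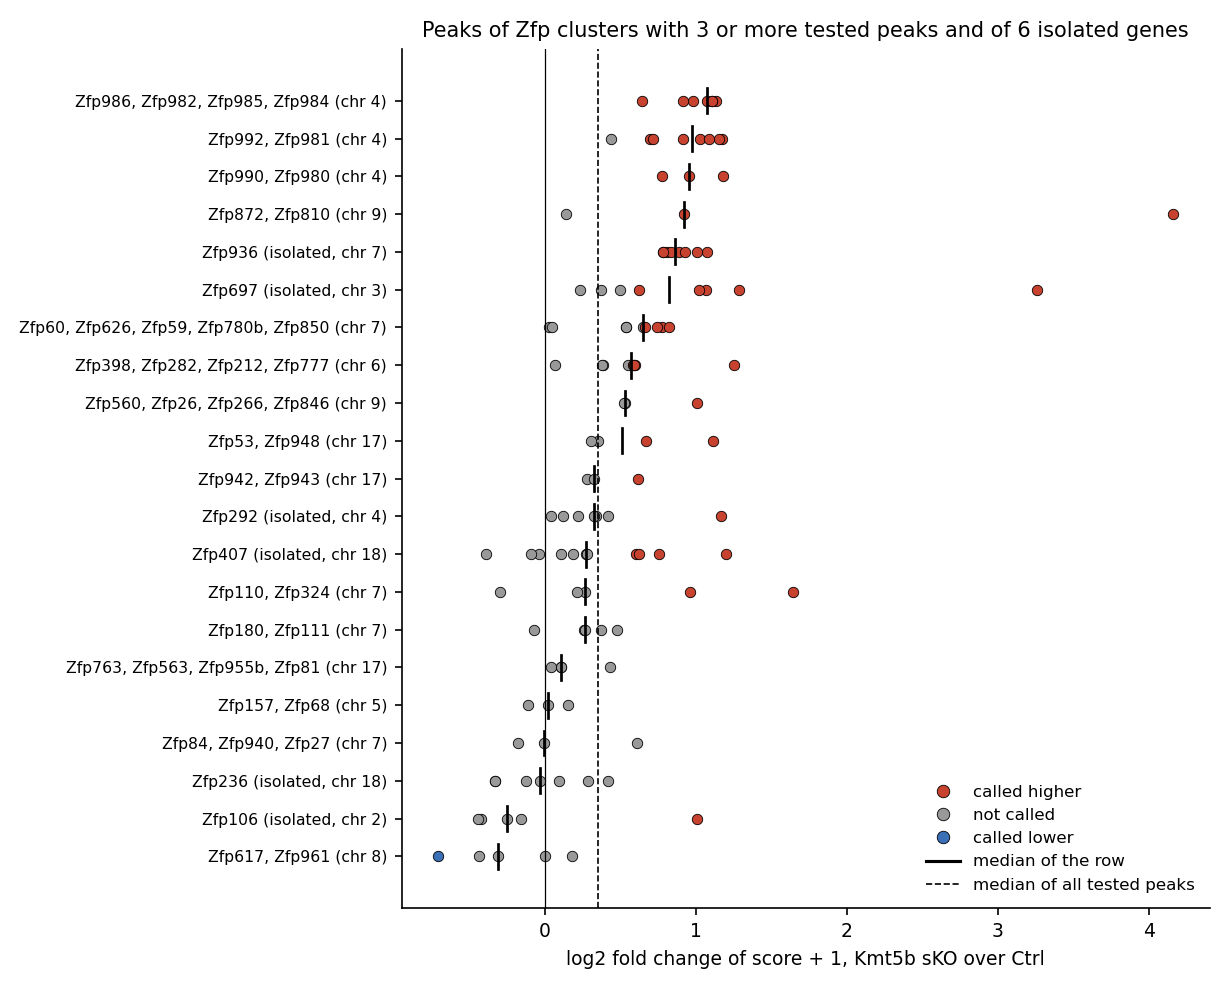
Log2 fold change of score + 1 (Kmt5b sKO over Ctrl, x axis) of each tested peak in the Zfp clusters with 3 or more tested peaks and in 6 isolated genes. Each point is a peak, coloured by its call, the black tick is the median of the row and the dashed line is the median of all tested peaks. The chromosome 4 clusters and Zfp936 stand near the top with nearly every peak called higher, and Zfp617 with Zfp961 at the bottom holds the peak called lower.

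On distal chromosome 4, nearly every tested Zfp peak was called higher. In mice this chromosome end carries a large array of KRAB zinc finger genes and their pseudogenes. Here, 9 of its genes had tested peaks (Zfp990, Zfp980, Zfp600, Zfp992, Zfp981, Zfp986, Zfp982, Zfp985 and Zfp984), and 18 of their 19 peaks were called higher (94.7%), with a median log2 fold change of 0.98. The summed score of the 19 peaks was 1087, 1227 and 1312 in Ctrl and 2291, 2403 and 2345 in Kmt5b sKO. The 3 Ctrl sums lay well below the 3 Kmt5b sKO sums, and the groups did not overlap. With libraries centred on their median peak, the 19 peaks had a median of 0.52, with 6 called higher and 0 lower.

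Zfp981 had the most peaks in that array. Its peak at chr4:146513400-146515199 (mm10, plus strand, overlapping an exon) scored 77, 78 and 114 in Ctrl and 183, 208 and 211 in Kmt5b sKO. Every Kmt5b sKO library was above every Ctrl library, and the log2 fold change was 1.17 ± 0.18 (SE), with a limma adjusted p of 1.8e-08. The next peak of the gene, at chr4:146516200-146517799, scored 96, 92 and 98 against 182, 236 and 226 (log2 fold change 1.15, limma adjusted p 1.7e-08).
In all, 6 of 7 tested Zfp981 peaks were called higher. The exception, at chr4:146531600-146533199, scored 45, 42 and 39 in Ctrl and 44, 63 and 67 in Kmt5b sKO, with overlapping groups, and its log2 fold change of 0.44 had a limma adjusted p of 0.21.

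Peaks of the other genes of the array were called higher too. Zfp992 scored 183, 195 and 233 in Ctrl and 367, 394 and 388 in Kmt5b sKO over a peak of 5200 bp (chr4:146452200-146457399), without overlap (log2 fold change 0.91, limma adjusted p 2.5e-07). Zfp982 held the highest score per kb of any tested Zfp peak, 103.9, at chr4:147498800-147500199. There the scores were 76, 104 and 97 in Ctrl and 213, 193 and 190 in Kmt5b sKO, the groups were apart, and the log2 fold change was 1.11 (limma adjusted p 1.2e-07). Zfp984 rose from 70, 81 and 84 to 153, 202 and 157 (log2 fold change 1.11, limma adjusted p 4.8e-07), again without overlap. The remaining called peaks of these genes had log2 fold changes between 0.64 and 1.18.

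Peaks not named for Zfp genes in the same stretch of chromosome 4 were often called higher too. Of its 44 intergenic tested peaks 37 were called higher (84.1%, median log2 fold change 0.97), against 77.5% of all 4058 intergenic tested peaks (median 0.95). Of the 12 peaks of other protein-coding genes there, 5 were called higher (41.7%, median 0.56), against 22.9% of all tested peaks of protein-coding genes (median 0.25). The 73 other tested peaks together had 52 called higher (71.2%), against 32.9% of all tested peaks. All 73 had a positive log2 fold change, against 78.7% of all tested peaks. The DNA is partly repeated: up to 34.7% of the 100-base windows of a peak (in Zfp980, at chr4:145686400-145687399) occurred more than once in the genome with identical sequence. The median over the 19 peaks was 3.66%, against 0 over all tested Zfp peaks. The 4 distal chromosome 4 peaks with no such window, in Zfp980, Zfp981 and Zfp982, were all called higher, with log2 fold changes of 0.72 to 1.18. Of these, the Zfp980 peak (13, 37 and 20 in Ctrl) had a Ctrl mean under 30 and passed the filter only through Kmt5b sKO. The part of repeated sequence in the gain of the 19 peaks was not tested.

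Among isolated genes, Zfp936 on chromosome 7 had every tested peak called higher. The gene spans 77.9 kb, encodes 11 fingers and carried 8 peaks between 4771 and 64171 bp from its start site. Their sum was 373, 358 and 459 in Ctrl and 805, 707 and 700 in Kmt5b sKO, with no overlap between the groups. Single peaks changed by log2 fold changes of 0.78 to 1.08. The largest change was at chr7:43129400-43130199, which scored 25, 19 and 42 in Ctrl and 46, 61 and 71 in Kmt5b sKO, the lowest Kmt5b sKO library lying just above the highest Ctrl library (log2 fold change 1.08 ± 0.32 SE, limma adjusted p 0.0042). After centring on the median peak, the 8 peaks had a median of 0.40 and none was called. Within 500 kb of the Zfp936 peaks lay 5 other tested peaks outside Zfp genes, and 3 of them were called higher. Their median log2 fold change was 0.80 on the spike-in scale, against 0.86 for the 8 Zfp936 peaks. Zfp719, the nearest Zfp gene at 387501 bp, had a single tested peak, which rose from 17, 20 and 16 to 54, 47 and 27 (log2 fold change 1.17, limma adjusted p 0.027). The Zfp719 peak and the Zfp936 peak of largest change had Ctrl means under 30 and passed the filter only through Kmt5b sKO.

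The middle of that Zfp936 peak is shown because 88.9% of the peak was soft-masked as repeats in the reference, against a median of 29.5% over Zfp peaks and 26.7% over all tested peaks. It lies at chr7:43129651-43129950 (GRCm38, plus strand, in an intron), and capitals mark soft-masked bases.
Zfp936: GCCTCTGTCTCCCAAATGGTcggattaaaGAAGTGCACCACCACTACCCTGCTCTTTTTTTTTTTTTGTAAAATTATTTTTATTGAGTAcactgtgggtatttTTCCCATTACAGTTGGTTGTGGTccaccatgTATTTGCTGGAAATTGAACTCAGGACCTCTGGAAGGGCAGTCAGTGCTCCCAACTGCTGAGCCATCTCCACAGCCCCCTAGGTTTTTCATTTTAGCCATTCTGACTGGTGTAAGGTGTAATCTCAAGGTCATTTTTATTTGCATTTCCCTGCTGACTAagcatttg

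**Figure D2:**
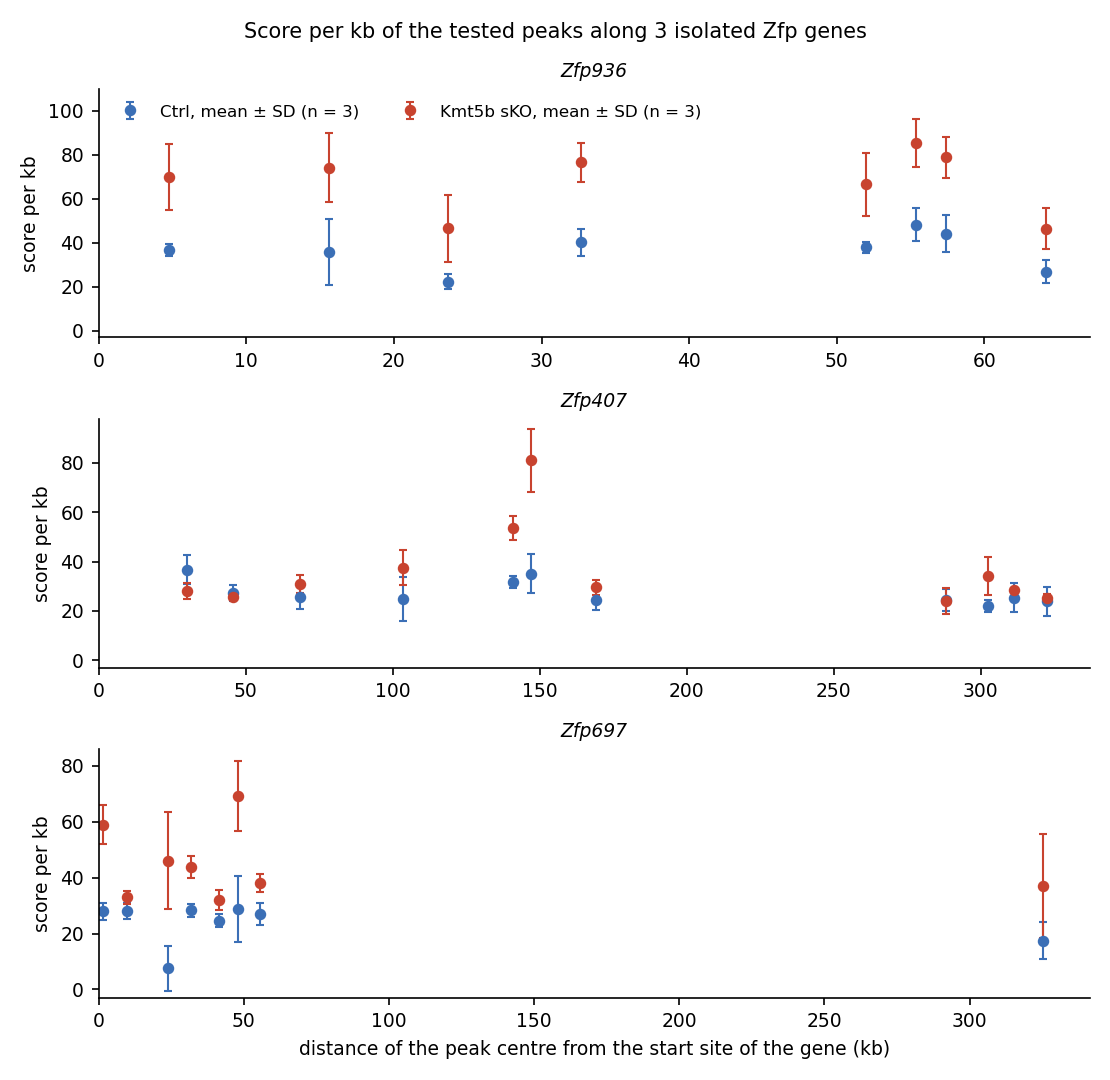
Score per kb (y axis, mean ± SD of 3 libraries, blue for Ctrl and red for Kmt5b sKO) of each tested peak against the distance of its centre from the start site of the gene (x axis, kb) in 3 isolated Zfp genes. In Zfp936 all 8 peaks are higher in Kmt5b sKO, whereas Zfp407 and Zfp697 hold called peaks between peaks with little or no difference.

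Zfp407 and Zfp697 showed the other pattern, with some peaks called higher between others that were not called. Zfp407, a large gene of 461.7 kb, had 11 tested peaks, and 4 of them passed as higher and 0 as lower. The peak at chr18:84442200-84443199 rose from 44, 32 and 29 to 78, 95 and 70, without overlap (log2 fold change 1.20, limma adjusted p 9.8e-05). By contrast the peak of 23400 bp at chr18:84532400-84555799 scored 595, 721 and 597 in Ctrl and 576, 590 and 622 in Kmt5b sKO, overlapping ranges with a log2 fold change of −0.09 (limma adjusted p 0.64). In Zfp236, also on chromosome 18, 0 of 7 tested peaks were called in either direction, and log2 fold changes ran from −0.33 to 0.42.

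In Zfp697, 5 of 8 tested peaks were called higher. The largest change was at chr3:98405600-98406799, in an intron, where Ctrl scored 19, 0 and 8 and Kmt5b sKO 79, 41 and 46. The groups were apart, but the size rested on single low Ctrl scores: the log2 fold change was 3.26 ± 0.71 (SE, limma adjusted p 8e-05), 2.01 without Ctrl replicate 2 and 4.17 without Ctrl replicate 1. In this peak, 21.1% of 100-base windows occurred more than once in the genome. Near the start of the gene, the peak at chr3:98382600-98385399 rose from 78, 87 and 70 to 161, 186 and 148 (log2 fold change 1.06, limma adjusted p 1.5e-06), also without overlap.

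Zfp872 on chromosome 9 held the largest change of all Zfp peaks. The peak at chr9:22189600-22191399, in an intron on the plus strand, scored 2, 4 and 4 in Ctrl and 57, 60 and 120 in Kmt5b sKO. Ctrl was near 0 in every library and all Kmt5b sKO libraries were far above it. The log2 fold change of score + 1 was 4.16 ± 0.70 (SE), with a limma adjusted p of 2e-07, and the peak passed the filter only through Kmt5b sKO. The middle 300 bases are shown (chr9:22190351-22190650, GRCm38, strand of the gene) because the DNA is a tandem repeat.
Zfp872: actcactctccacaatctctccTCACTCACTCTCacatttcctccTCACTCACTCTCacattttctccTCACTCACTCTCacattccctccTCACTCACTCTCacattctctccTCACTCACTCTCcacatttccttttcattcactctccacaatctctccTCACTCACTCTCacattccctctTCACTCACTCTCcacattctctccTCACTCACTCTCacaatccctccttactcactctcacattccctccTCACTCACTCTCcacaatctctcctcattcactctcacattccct
Capitals mark copies of TCACTCACTCTC, the most frequent 12-base word of this stretch. The whole peak of 1800 bp held 50 copies on the strand of the gene and 0 on the other strand. Searched on both strands, the word occurred in 73 of 25815 tested peaks (0.283%). Of these, 12 (16.4%) were called higher, against 32.9% of all tested peaks. In the Zfp872 peak 13.4% of 100-base windows occurred more than once in the genome, a share that includes copies within the peak itself.

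Few peaks over the DNA that encodes zinc fingers were called. Fingers were located in the coding sequence of 106 genes by the spacing of their cysteines and histidines, with a median of 11 per gene, and Zfp36 and Zfp36l2 had none of this type. A peak counted as over finger-coding DNA when any of its bases encoded a finger, and its score covers the whole peak. The overlap ran from 20 bases (Zfp982) to 1710 (Zfp646). Of the 38 tested peaks over finger-coding DNA, 2 were called higher (5.26%) and 1 lower. Their median log2 fold change was 0.04. Off that DNA, 65 of 165 peaks were higher (39.4%) and 0 lower, with a median of 0.47. After centring on the median peak, 0 of the 38 were higher and 12 lower, against 17 and 9 of the 165. Centred within classes of peak length, 0 of the 38 were higher and 3 lower, against 11 and 5 of the 165. On the spike-in scale without distal chromosome 4, 48 of 147 peaks off finger-coding DNA were higher. In isolated genes, 0 of 30 finger peaks were called higher. The finger peaks called higher were in Zfp982 (chr4:147511400-147512599, 31, 47 and 45 against 90, 81 and 72, log2 fold change 0.98) and Zfp777 (chr6:48025400-48027799, 96, 104 and 79 against 146, 166 and 112, log2 fold change 0.59). These peaks held only 20 (Zfp982) and 63 (Zfp777) finger-coding bases. Zfp777 was no longer called without Ctrl replicate 3 (0.48), Kmt5b sKO replicate 1 (0.56) or Kmt5b sKO replicate 2 (0.46).

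Length moved with this split, since the median length was 5000 bp for finger peaks and 2000 bp for the others. Among peaks of 2200 bp or more, 1 of 31 finger peaks (3.23%) and 19 of 79 other Zfp peaks (24.1%) were called higher. Finger peaks were still the longer ones there, with a median of 6400 bp against 3600 bp. From 6000 bp, 0 of 17 finger peaks and 1 of 17 others were called higher. The counts were 0 of 9 and 7 of 30 at 3200 to 5800 bp, and 1 of 5 and 11 of 32 at 2200 to 3000 bp. Over all coding genes at 2200 bp or more, peaks over the longest coding exon were called higher in 9.16% of 2434 cases and other peaks in 12.3% of 11171. In 15 of the 19 genes with both kinds of peak, the other peaks had the higher mean log2 fold change, by a median of 0.29. Exons in general showed the same order: 17 of 103 Zfp peaks that touched an exon (16.5%) and 50 of 100 that touched none (50.0%) were higher, against 14.6% and 31.5% over all coding genes. The exons of Zfp91 were not located, and its 2 tested peaks, neither called, are counted here as touching no exon and no finger. Without them the counts were 50 of 98 off exons and 65 of 163 off finger-coding DNA. How much of the split goes with length was not tested.

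**Figure D3:**
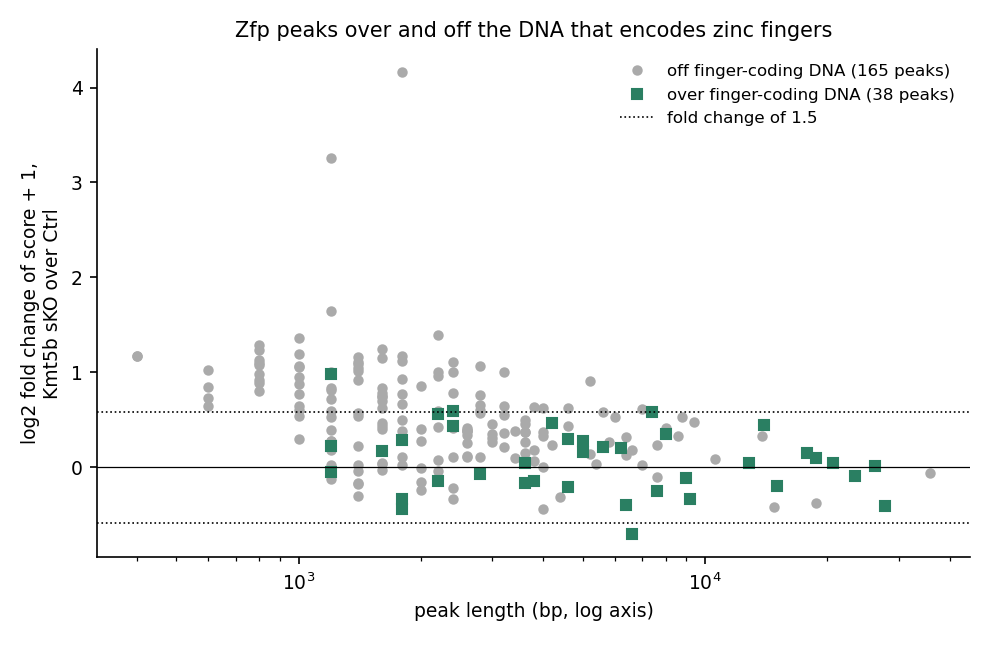
Log2 fold change of score + 1 (y axis, Kmt5b sKO over Ctrl) against peak length (x axis, bp, log axis) for the 203 tested Zfp peaks. Green squares are the 38 peaks over finger-coding DNA and grey circles the 165 others, and dotted lines mark a fold change of 1.5. Most green squares lie near 0, with Zfp982 at 0.98 as the highest and Zfp961 at −0.70 as the lowest, and most points above the upper line are grey and short.

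Zfp961, on chromosome 8, had the peak called lower. Its last peak, chr8:71965800-71972399 (plus strand), covered all 11 fingers of the gene and scored 190, 246 and 181 in Ctrl and 128, 94 and 161 in Kmt5b sKO. The highest Kmt5b sKO library was below the lowest Ctrl library. It fell by 0.70 on the log2 scale (SE 0.18, limma adjusted p 0.00052). Without Ctrl replicate 2 the log2 fold change was −0.57 and without Kmt5b sKO replicate 2 it was −0.50, both short of a fold change of 1.5. Of the 5 tested peaks in Zfp961 and its neighbour Zfp617, 0 were called higher and the median was −0.31.

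The peak with the most finger-coding DNA, in Zfp646 at chr7:127876200-127890199, covered 27 fingers and scored 568, 709 and 511 in Ctrl and 718, 895 and 820 in Kmt5b sKO. The Kmt5b sKO libraries were all above Ctrl, yet the log2 fold change of 0.45 (limma adjusted p 0.0049) was under the minimum. To show the coding repeat these peaks cover, neighbouring fingers of each gene follow, from chr8:71968080-71968226 and chr7:127879430-127879576 (GRCm38, plus strand in both), with the codons of the zinc-binding cysteines and histidines in capitals.
Zfp961: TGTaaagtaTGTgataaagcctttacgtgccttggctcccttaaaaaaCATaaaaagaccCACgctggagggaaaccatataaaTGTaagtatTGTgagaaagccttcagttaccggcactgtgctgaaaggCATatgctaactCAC
Zfp646: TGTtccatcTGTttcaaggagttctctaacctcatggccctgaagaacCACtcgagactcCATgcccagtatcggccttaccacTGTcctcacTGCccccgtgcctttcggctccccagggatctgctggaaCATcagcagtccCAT
Both stretches run over 147 bases, and the capitals fall at the same spacing in each.

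The longest Zfp peaks described here changed by less than the fold change minimum. Zfp644 held the highest scores: 1784, 2186 and 1766 in Ctrl and 1704, 1822 and 1945 in Kmt5b sKO over 35800 bp (chr5:106660800-106696599), overlapping ranges with a log2 fold change of −0.06 (limma adjusted p 0.74). Over its finger exons, at chr5:106618400-106646199, the scores were 1194, 1335 and 1034 in Ctrl and 899, 859 and 925 in Kmt5b sKO, without overlap, and the log2 fold change of −0.40 (limma adjusted p 0.01) did not reach the minimum. Zfp326 scored 963, 1173 and 1002 against 944, 1138 and 1085 (log2 fold change 0.01, limma adjusted p 0.95). Zfp106, a gene best known in muscle and motor neurons, had 1 of 5 tested peaks called higher (chr2:120541600-120542799, 32, 19 and 21 in Ctrl and 58, 49 and 39 in Kmt5b sKO, log2 fold change 1.01, limma adjusted p 0.021), while its other 4 had log2 fold changes of −0.44 to −0.15, none of them called.

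As over all tested peaks, the share of Zfp peaks called higher fell with length. With all tested peaks divided into 5 classes of length, the shortest class (200 to 1200 bp) had 26 of 44 Zfp peaks called higher (59.1%, against 67.8% of all tested peaks), and the longest, from 6000 bp, had 1 of 34 (2.94%, against 4.27%). The middle class stood at 32.4% of 37 Zfp peaks and 26.2% of all. Clustered genes exceeded isolated ones most in the class of 1400 to 2000 bp, where 12 of 20 and 9 of 29 peaks were called higher. When each library was centred within each length class, 11 Zfp peaks were called higher and 8 lower, 4 of the 11 on distal chromosome 4.

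**Figure D4:**
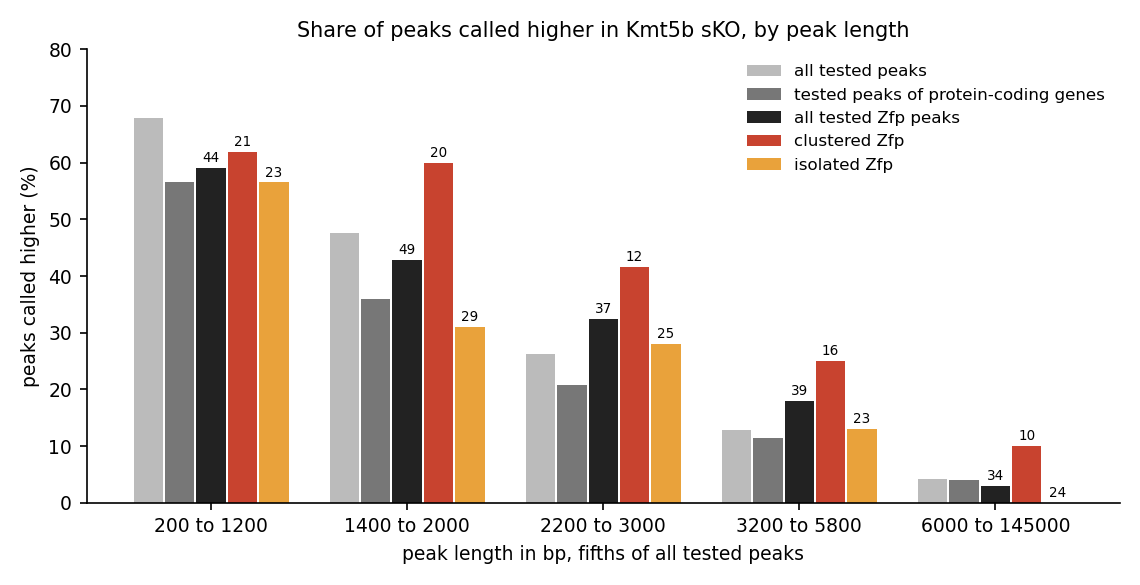
Share of tested peaks called higher in Kmt5b sKO (y axis, percent) in 5 classes of peak length (x axis, bp) for all tested peaks, those of protein-coding genes, all Zfp peaks, and clustered and isolated Zfp genes. Numbers over the bars are the Zfp peaks in each group. The share falls with length in every group, and clustered Zfp genes lie above isolated ones in each class.

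Start sites were rarely covered: 5 of 203 tested Zfp peaks (2.46%, against 1.22% of all tested peaks) had their centre within 1 kb of the annotated start site of their gene, and all 5 were called higher. Of all 315 tested peaks near a start site, 56.8% were called higher. In Zfp110, Zfp36 and Zfp986 the Ctrl mean was under 30, so that these 3 peaks passed the filter only through Kmt5b sKO. Zfp110 rose from 21, 17 and 14 to 74, 58 and 40 at chr7:12833600-12834799, without overlap (log2 fold change 1.64 ± 0.40 SE, limma adjusted p 0.00035). Zfp36 rose from 24, 23 and 34 to 48, 83 and 86 at chr7:28379600-28380599, again with the groups apart (log2 fold change 1.36, limma adjusted p 0.000103). The others were Zfp986 (26, 30 and 33 against 54, 90 and 59), Zfp948 (52, 57 and 50 against 76, 90 and 89) and Zfp985 (130, 127 and 120 against 206, 177 and 208), with log2 fold changes of 1.13, 0.67 and 0.64.

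RefSeq promoter windows, from 250 bases before to 50 after a start, were found for 91 of the 107 genes (GRCm38.p6). Windows under a called peak are shown for Zfp110 (chr7:12834511-12834810) and Zfp985 (chr4:147553027-147553326), both on the plus strand, with CG in capitals, because they differ in CG content.
Zfp110: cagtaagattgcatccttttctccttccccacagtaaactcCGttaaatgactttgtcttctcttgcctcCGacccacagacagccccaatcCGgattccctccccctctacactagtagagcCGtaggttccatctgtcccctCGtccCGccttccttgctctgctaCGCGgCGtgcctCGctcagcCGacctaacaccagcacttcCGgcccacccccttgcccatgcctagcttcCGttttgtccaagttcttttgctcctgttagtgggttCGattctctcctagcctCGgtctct
Zfp985: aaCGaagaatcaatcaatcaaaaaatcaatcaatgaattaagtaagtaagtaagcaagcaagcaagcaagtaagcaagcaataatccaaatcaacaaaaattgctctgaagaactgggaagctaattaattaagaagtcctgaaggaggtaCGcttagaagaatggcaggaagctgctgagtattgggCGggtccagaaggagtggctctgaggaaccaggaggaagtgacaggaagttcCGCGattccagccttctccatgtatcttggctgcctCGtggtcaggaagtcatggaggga
The Zfp110 window held 15 CG, a number that 34.6% of the 32851 windows of the table reached, and the Zfp985 window held 6, against a median of 7. For Zfp36 the RefSeq window ended 122 bases short of the peak, which therefore lay upstream of that start.

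Zfp36l2, the RNA-decay relative of Zfp36, rose too. Its peak over the gene body at chr17:84185200-84187399 (minus strand, GC content 65.1%) scored 34, 30 and 41 in Ctrl and 130, 106 and 58 in Kmt5b sKO, without overlap (log2 fold change 1.39 ± 0.25 SE, limma adjusted p 1.9e-06). Of 20 Zfp genes listed by function, only Zfp36, Zfp36l2, Zfp217, Zfp106, Zfp638 and Zfp91 carried a union peak. Zfp57, which guards imprints, and Zfp809 and Zfp568, KRAB genes with known targets, carried none. Zfp217, an oncogene in breast tissue, scored 106, 74 and 88 in Ctrl and 94, 153 and 128 in Kmt5b sKO, with overlap (log2 fold change 0.47, limma adjusted p 0.048), and was not called. In Zfp638 0 of 3 and in Zfp91 0 of 2 tested peaks were called. The Zfp91 peak of 18800 bp scored 792, 1095 and 826 in Ctrl and 739, 683 and 644 in Kmt5b sKO, without overlap (log2 fold change −0.38, limma adjusted p 0.018).

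**Figure D5:**
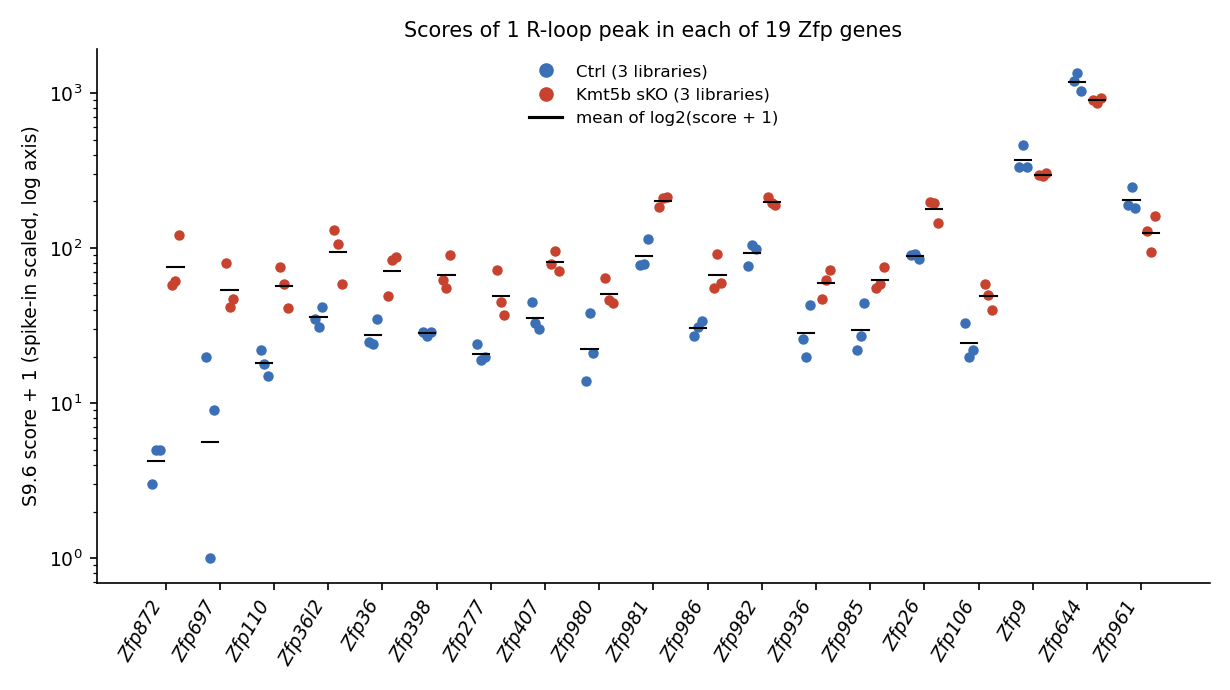
S9.6 score + 1 (y axis, log axis) in each of 3 Ctrl (blue) and 3 Kmt5b sKO (red) libraries for 1 named peak in each of 19 Zfp genes with a log2 fold change over 0.95 or under −0.3, with bars at the mean of log2(score + 1). Zfp872 shows the widest gap, and Zfp9, Zfp644 and Zfp961 at the right have every Kmt5b sKO library below Ctrl.

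Other clusters gave mixed values. The chromosome 7 cluster of Zfp60, Zfp626, Zfp59, Zfp780b and Zfp850 had 4 of 9 tested peaks called higher (median log2 fold change 0.65), and that of Zfp398, Zfp282, Zfp212 and Zfp777 on chromosome 6 had 4 of 8 (median 0.57). In the latter, Zfp398 rose from 28, 26 and 28 to 61, 54 and 89 without overlap (log2 fold change 1.25, limma adjusted p 0.00042). On chromosome 9, Zfp26 rose from 89, 90 and 84 to 197, 195 and 145 (log2 fold change 1.01, limma adjusted p 2.9e-06), while the tested peaks of its neighbours Zfp560 and Zfp266 had log2 fold changes of 0.53 and were not called. The cluster of Zfp763, Zfp563, Zfp955b and Zfp81 on chromosome 17 had 0 of 4 peaks called and that of Zfp84, Zfp940 and Zfp27 on chromosome 7 had 0 of 3, so that neighbourhoods of like size ranged from none to all called.

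Genes that work with KRAB zinc finger proteins were compared as a listed group of co-repressors and partners. Tested peaks lay in 22 of 29 listed symbols, and 17 of 66 peaks were higher (25.8%) and 0 lower, in 12 genes, a share near that of protein-coding genes as a whole (22.9%). Trim28, the co-repressor itself, had a peak (chr7:13011000-13011999) that rose from 27, 29 and 25 to 65, 45 and 53 (log2 fold change 0.97, limma adjusted p 0.014). Cbx5, which encodes HP1 alpha, rose from 25, 24 and 38 to 45, 85 and 61 (log2 fold change 1.09, limma adjusted p 0.0026). The other 2 tested Trim28 peaks and both of Setdb1 were not called. The Zbtb, Zkscan and Zscan genes, other C2H2 families, had 14 of 91 tested peaks higher (15.4%) and 0 lower, and their median log2 fold change was 0.24.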

How the data were processed

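R-loops were profiled by DRIP-seq in proliferating MuSCs, with 3 S9.6 libraries each of Ctrl and Kmt5b sKO. As stated in the methods and the submitters' processing notes, the authors trimmed reads (Trimmomatic 0.39, after FastQC 0.11.8), kept unique STAR 2.7.3a alignments to mm10, removed duplicates (Picard 2.21.7), called peaks against input with epic2 (an implementation of SICER, listed as 0.0.41), merged them into 28265 union peaks and named each for the gene it overlapped most. The deposited values are spike-in scaled scores per union peak, rounded, and not counts, so a count model was not used. Keeping unique alignments lowers signal in repeated sequence, which zinc finger clusters hold, and a score sums over a peak, so longer peaks have larger scores.

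Here log2(score + 1) of the 25815 autosomal peaks with a mean score over 30 was fitted with limma 3.58.1 (R 4.3.3), all 6 libraries and no covariate, and p-values were adjusted over all tested peaks by Benjamini-Hochberg. The variance prior, a trend over mean score, came out with infinite degrees of freedom. Each peak therefore took the variance of the trend in place of its own. Peaks with adjusted p under 0.1 whose fold change exceeded 1.5 were called. On simulated data of the same size, 162 of 200 peaks changed by 1 log2 unit and 11 unchanged peaks were called. The simulated noise followed a trend over mean score, as the fit assumes, so these counts give no rate of false calls for the real libraries. Peak starts are given as in the table and can lie 1 base before the first base a browser shows. Exons and fingers came from GENCODE vM21, which held 106 of the 107 genes (not Zfp91), and sequences from RefSeq GRCm38.p6. Repeated windows are 100-base stretches found more than once in that genome, also where the copies lie within the same peak.

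The members and lists were chosen with earlier results of these data known. Named peaks were the 10 largest and 6 smallest log2 fold changes (1 peak per gene), the 5 smallest adjusted p, the 3 highest scores and scores per kb, called peaks within 1 kb of a start site, the genes with most peaks in the 6 largest clusters, the 3 isolated genes with most peaks, and a list of 20 genes. Other peaks, the split by finger-coding DNA, the repeat word and the removal of distal chromosome 4 were chosen after their values were seen. Tables were handled with Python 3.11.15, pandas 2.3.3, numpy 2.4.6 and pysam 0.24.0, and figures drawn with matplotlib 3.10.9.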

Additional observations from a re-analysis of the deposited data

How the results depend on the processing

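On the spike-in scale 67 Zfp peaks in 42 genes were higher (35 clustered, 32 isolated) and 1 lower, and the median log2 fold change was 0.40. Centred on the median peak, 17 were higher and 21 lower, the median was −0.063, and 13 genes, 10 clustered and 7 isolated peaks were higher. Centred within length classes, the values were 11, 8, 0.025, 10, 8 and 3, and after quantile normalization 15, 13, 0.014, 13, 9 and 6. With the same total in every library 45 were higher (23 clustered) and 7 lower, with a median of 0.19. A mean score over 100 left 82 peaks, with 19 higher in 17 genes (11 clustered, 8 isolated). Here the Zfp share (23.2%) was above that of all peaks tested (12.3%), unlike with the lower minimum. Distal chromosome 4 held 7 of the 82 peaks, and all 7 were called higher. The variance of each peak alone, in place of that of the trend, gave 51 higher and 0 lower. No fold change minimum gave 90 higher and 7 lower, and a fold change over 2 gave 31 higher and 0 lower in 24 genes (16 clustered, 15 isolated). With clusters set at 500 kb, 18 isolated peaks were higher, with clusters of 3 or more genes 16 clustered and 51 isolated, and without distal chromosome 4, added after seeing the data, 18 clustered.

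Leaving out 1 library at a time gave 60 to 79 higher, 0 to 1 lower (0 without Ctrl replicate 2), medians of 0.35 to 0.45, 36 to 51 genes, 31 to 38 clustered and 28 to 41 isolated peaks. The replicate numbers did not pair the libraries (correlations of same-numbered deviations −0.0094, 0.0108 and −0.0272), and with the replicate block 67 were higher and 1 lower.

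Of the named peaks' values under other settings, 569 kept direction and call, 54 lost the call, 17 gained it and 23 changed sign. Centred on the median peak they were Zfp91 (−0.060), Zfp638 (−0.16), Zfp563 (−0.42) and Zfp326 (−0.44). Centred within length classes they were Zfp59 (−0.0016), Zfp27 (−0.21), Zfp638 (−0.53), Zfp563 (−0.51) and Zfp326 (−0.093). After quantile normalization they were Zfp27 (−0.015), Zfp91 (−0.046), Zfp638 (−0.31), Zfp563 (−0.57) and Zfp326 (−0.018), and with the same total Zfp563 (−0.16) and Zfp326 (−0.19). With 1 library left out, Zfp563 ranged from −0.21 to 0.28, Zfp326 from −0.043 to 0.099 and Zfp644 from −0.12 to 0.037. The causes were not tested. The reads behind each score are unknown, so depth sets no stated limit.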
